A study of Mus musculus with 12 samples.

Results

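The genes described here make up the response of wild-type mouse marginal zone B (MZB) cells to lipopolysaccharide (LPS), measured by RNA sequencing after 4 h. The 2 libraries of wild-type cells given LPS at 10 µg/mL were set against the 2 libraries of wild-type cells kept for 4 h without a stimulus. All 10797 genes of the 24346 listed symbols that reached at least 1 FPKM in at least 2 of the 12 libraries of the series were tested, with no choice on how they moved. FPKM is a fragment count scaled to transcript length and to the depth of the library. The other 8 libraries hold wild-type cells given anti-IgM antibody at 10 µg/mL for 4 h and Trpm5-/- cells under the same 3 conditions, with 2 libraries in each group. Trpm5 encodes a monovalent cation channel, and the study's title names it as a negative regulator of calcium signalling by LPS in B cells. The labels do not say whether duplicates came from separate animals or cultures, nor the age or strain of the mice, so a p-value here reflects how far duplicate libraries differ, and that difference may be technical.

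MZB cells sit at the edge of the splenic white pulp, next to blood flow, and answer blood-borne microbial products quickly. LPS is bound by MD-2 on Toll-like receptor 4 (TLR4), which signals through MyD88 and TRIF to the kinases that free NF-kB from its inhibitors and that switch on interferon genes. Activated B cells then grow, change their homing receptors and can become antibody-secreting cells.

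All 10 pan-B markers and all 8 MZB markers listed in the files were tested, and many moved, as did 69.4% of all tested genes. Over all tested genes 35.0% rose and 34.4% fell, 13.1% and 15.5% at least 2-fold. Of the MZB markers 6 fell, 3 at least 2-fold, and 2 rose at least 2-fold, and of the pan-B markers 7 fell and 2 rose (median -0.52, and -1.16 under quantile normalization). Cd9, a tetraspanin high on MZB cells, was at 269 and 284 FPKM without stimulus and at 241 and 250 FPKM with LPS. The genes of the T cell receptor complex were near 0. The 8 NK cell markers summed to 3.86 and 1.78 FPKM without stimulus and 0.638 and 0.315 FPKM with LPS, and the 1 tested fell. The 11 T cell markers summed to 26.6 and 25.7 FPKM without stimulus and 15.8 and 17.5 FPKM with LPS. Of the 3 tested 1 fell, and 8 of the 11 stayed under 1 FPKM in all 4 wild-type libraries. All 8 neutrophil and all 5 platelet markers stayed under 1 FPKM too, while the 8 erythroid markers were all tested and summed to 712 and 687 FPKM without stimulus and 455 and 540 FPKM with LPS. The 16 macrophage markers summed to 97.9 and 87.8 FPKM without stimulus and 149 and 183 FPKM with LPS, of which the heme oxygenase Hmox1 made up 57.3 and 54.4 against 125 and 164 FPKM. The macrophage receptor Adgre1 went the other way, from 6.86 and 5.79 to 2.03 and 1.24 FPKM, Csf1r was under 1 FPKM and Fcgr1 at 0. Of the 16 macrophage markers 7 were tested, of which 1 rose, 2 fell and 4 were not called. In all 4 wild-type libraries 7 of the 16 stayed under 1 FPKM. Of the 8 dendritic cell markers 2 were tested and both rose, by 1.48 and 3.10 on the log2 scale. The larger rise was in the transcription factor Zbtb46, from 6.78 and 7.27 to 65.1 and 70.2 FPKM. Itgax stayed under 1 FPKM and Clec9a at 0. The 9 stromal and endothelial markers summed to 42.2 and 48.5 against 13.6 and 12.8 FPKM, nearly all of it Pecam1. The 4 listed nuclear and noncoding RNAs used as signs of RNA quality, Malat1 and Neat1 among them, summed to 456 and 407 FPKM without stimulus and 182 and 155 FPKM with LPS. The part of other cells or of RNA quality in any single result was not tested, and in bulk RNA fewer cells of a type and less RNA per cell cannot be told apart.

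Trpm5 itself did not pass the filter on low values. It was listed at 0.0196 and 0.210 FPKM in unstimulated and at 0.434 and 0.321 FPKM in LPS-treated wild-type cells, and at 0.0236, 0.0184, 0 and 0.0303 FPKM in the 4 Trpm5-/- libraries without and with LPS. Levels this low check the genotype labels only weakly. No total of reads is in the files. Where whole fragments could be inferred from the spacing of low values, the LPS libraries held 0.677 and 0.670 of the fragments per FPKM of the first unstimulated library, and the second unstimulated library 0.934. FPKM values summed to 765468 and 755419 with LPS against 597308 and 563461 without, so each value is relative to its own library.

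LPS moved most of the expressed genes within 4 h, in both directions about equally. By limma on log2(FPKM + 1) with Benjamini-Hochberg adjustment, 69.4% of tested genes (7489) passed an adjusted p of 0.05, 3774 of them higher with LPS (35.0%) and 3715 lower (34.4%). Of these, 1414 rose at least 2-fold (13.1%) and 1669 fell at least 2-fold (15.5%), 213 and 370 moved at least 4-fold, and 9 rose and 8 fell at least 16-fold. The median difference over all tested genes was -0.02 on the log2 scale, with quartiles of -0.66 and 0.59 and a median SE of 0.131. The 2 and 2 libraries did not overlap for 9131 genes (84.6%), which includes genes whose difference was too small to be called. Counts of list members below are to be read against these shares. They cover the members that passed the filter on low values, which a gene can pass through the stimulated libraries alone, so the medians are descriptions. Fold changes on the log2(FPKM + 1) scale understate the change of genes near or below 1 FPKM.

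**Figure D1:**
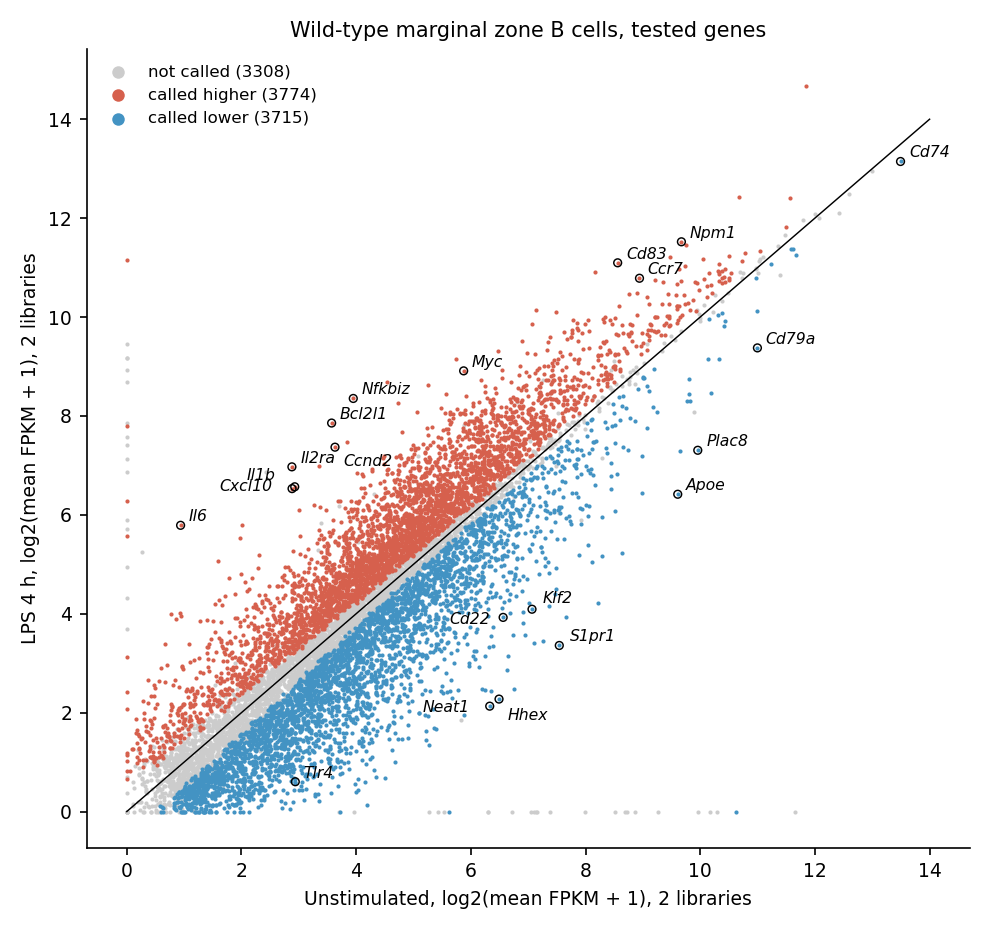
Mean level of each of the 10797 tested genes in unstimulated (x axis) and LPS-treated (y axis) wild-type cells, both as log2(mean FPKM + 1) over 2 libraries, with the line of equal level; 3774 genes called higher are red, 3715 called lower blue and 3308 not called grey. Il6, Nfkbiz, Bcl2l1 and Il2ra lie far above the line and S1pr1, Hhex and Neat1 far below it, and points on either axis are genes listed at 0 in both libraries of a condition, many of them small RNA genes.

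Leaving out small RNA, predicted and receptor segment genes, the largest rise on the log2 scale was in a cytokine. Among the small RNA genes left out, Snord16a rose by 11.13. Il6, which encodes interleukin-6 and lies on mm10 chr5:30013114-30019981, was at 0.837 and 0.995 FPKM without stimulus and 53.3 and 55.2 FPKM with LPS (59.2-fold in the means, log2 difference 4.85 ± 0.19 SE, adjusted p = 6.77e-09 by limma). Nfkbiz, the nuclear co-factor IkB-zeta that Il6 induction needs, on chr16:55811375-55838899, was at 14.5 and 14.4 FPKM against 315 and 337 FPKM (log2 difference 4.40 ± 0.08, adjusted p = 1.45e-10 by limma). Bcl2l1, which encodes the survival protein BCL-xL, was at 11.1 and 10.7 FPKM against 231 and 230 FPKM (4.28 ± 0.06). For all 3 the LPS libraries stood far above the unstimulated ones, and each pair of duplicates lay close together. The ranking took only genes whose libraries did not overlap. Mir155hg, the host transcript of miR-155, rose by 4.16, Il2ra, the alpha chain of the interleukin-2 receptor, by 4.10, and Ccl22, a chemokine for T cells, by 3.83 on the log2 scale. Cyclin D2 (Ccnd2, 3.74), Il1b (3.65), Cxcl10 (3.64), the interleukin-27 and interleukin-35 subunit Ebi3 (3.64), the AP-1 family factor Batf (3.53), the lysolipid transporter Mfsd2a (3.47), the amino acid oxidase Il4i1 (3.41), Bcl2a1d (3.40) and the retinal reductase Dhrs3 (3.22) completed the 15 largest rises. Bcl2a1d has near-identical copies, so its reads may be shared with them.

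By the same rule, the largest falls included the receptor that keeps MZB cells in place, several signalling adaptors and a nuclear RNA. S1pr1, the sphingosine-1-phosphate receptor, on chr3:115710433-115715072, was at 186 and 185 FPKM without stimulus and 7.49 and 11.0 FPKM with LPS (20-fold lower, log2 difference -4.21 ± 0.15, adjusted p = 3.05e-09 by limma). Susd3 was at 111 and 103 FPKM against 5.55 and 3.65 FPKM (-4.29 ± 0.16), and the homeobox factor Hhex at 87.4 and 90.4 FPKM against 4.87 and 2.81 FPKM (-4.25 ± 0.18). Neat1, the long noncoding RNA that builds paraspeckles, on chr19:5824708-5845478, was at 77.7 and 81.1 FPKM against 3.65 and 3.11 FPKM (-4.20 ± 0.10). All 4 genes were 20-fold or more lower in the means. Lack of overlap between the libraries was a condition of this ranking and held for 84.6% of all tested genes. On the log2 scale Fcrla, a B cell Fc receptor-like protein, fell by 4.01, the integrin chain Itgb7 fell by 3.94 and the adaptor Dok3 fell by 3.78. B3gnt8, a glycosyltransferase, was at 16.5 and 17.9 FPKM without stimulus and at 0.0953 and 0.0962 FPKM with LPS, and the sorting nexin Snx32 at 6.52 and 5.95 FPKM against 0.0837 and 0 FPKM. These were the only genes at 5 FPKM or more in both unstimulated libraries and under 0.1 FPKM in both LPS libraries. Small RNA, predicted and receptor segment genes were left out here, and under that rule no gene did the reverse.

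Promoters of 5 genes, of which Stat2 fell and the others rose, are shown because they carry the binding motifs of the pathways that TLR4 feeds. Each is the 250 bases before the RefSeq start site on GRCm38.p6, written on the gene's own strand, with matches to the kappaB motif of NF-kB or to the interferon-stimulated response element (ISRE, searched as a pair of GAAA boxes with any 2 bases between them) in capitals, both strands searched. They lie at chr5:30012864-30013113 (Il6, plus strand), chr5:92348890-92349139 (Cxcl10, minus strand), chr12:55492648-55492897 (Nfkbia, minus strand), chr4:156200819-156201068 (Isg15, minus strand) and chr10:128270248-128270497 (Stat2, plus strand).
Il6: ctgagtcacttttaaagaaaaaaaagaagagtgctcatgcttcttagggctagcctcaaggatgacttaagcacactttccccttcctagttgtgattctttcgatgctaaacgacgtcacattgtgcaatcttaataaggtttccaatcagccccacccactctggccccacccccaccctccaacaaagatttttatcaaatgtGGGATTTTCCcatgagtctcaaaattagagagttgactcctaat
Cxcl10: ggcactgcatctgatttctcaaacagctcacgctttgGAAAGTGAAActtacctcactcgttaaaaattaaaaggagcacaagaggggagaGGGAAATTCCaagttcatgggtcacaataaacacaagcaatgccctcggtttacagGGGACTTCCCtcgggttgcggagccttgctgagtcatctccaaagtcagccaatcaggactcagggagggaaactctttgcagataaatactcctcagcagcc
Nfkbia: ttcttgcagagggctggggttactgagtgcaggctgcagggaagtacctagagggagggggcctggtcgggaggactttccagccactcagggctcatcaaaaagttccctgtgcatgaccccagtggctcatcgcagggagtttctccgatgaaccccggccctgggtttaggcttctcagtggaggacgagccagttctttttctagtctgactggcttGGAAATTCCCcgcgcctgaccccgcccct
Isg15: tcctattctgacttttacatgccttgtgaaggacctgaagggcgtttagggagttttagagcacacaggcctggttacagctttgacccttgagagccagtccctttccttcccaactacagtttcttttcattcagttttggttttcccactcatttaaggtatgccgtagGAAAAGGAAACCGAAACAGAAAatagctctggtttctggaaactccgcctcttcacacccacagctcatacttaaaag
Stat2: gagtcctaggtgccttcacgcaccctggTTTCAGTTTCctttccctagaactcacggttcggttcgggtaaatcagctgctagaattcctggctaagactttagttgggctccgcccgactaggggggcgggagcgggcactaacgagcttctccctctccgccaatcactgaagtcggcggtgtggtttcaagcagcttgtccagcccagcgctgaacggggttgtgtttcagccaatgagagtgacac
Il6 holds 1 kappaB match, whose first base is at -44 from the start site. Cxcl10 holds kappaB matches at -159 and -103 and an ISRE match at -213. Nfkbia holds a kappaB match at -29, on the other strand. In Isg15, 3 overlapping ISRE matches begin at -78, -72 and -66. In Stat2 the ISRE also lies on the other strand, at -222. The first 4 of these genes rose with LPS and Stat2 fell. A match is a description of the letters and not a bound site.

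The kappaB motif was found in 3.75% of the 27025 promoters searched and in 4.35% of the 8231 promoters matched to tested genes. Only the first listed start of each symbol was searched, and not every chromosome was covered. It was in 5.22% of promoters of genes that rose at least 2-fold and in 4.25% of those that fell at least 2-fold. At 4-fold or more it was in 8.54% of those that rose (14 of 164) and in 4.98% of those that fell (14 of 281). Among NF-kB subunits and inhibitors 4 of 8 matched promoters held it, and among cytokines 4 of 10 that rose and 2 of 5 that fell. The ISRE was in 3.04% of all promoters searched and 2.77% of those of tested genes. In the interferon-stimulated list it stood in 4 of 7 promoters of genes that rose, in 9 of 22 of genes that fell and in 3 of 5 of genes not called, so it was present whichever way the genes moved. The median CpG count was 17 in promoters of genes that rose at least 2-fold and 13 in those that fell at least 2-fold.

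The receptor that senses LPS was itself lower after 4 h, while its kinases and adaptors split. Of 29 tested members of the TLR4 receptor and adaptor list, 10 rose and 10 fell (median log2 difference 0.03), near the background in both directions. Tlr4, on chr4:66827584-66930284, was at 6.38 and 6.95 FPKM without stimulus and 0.166 and 0.871 FPKM with LPS (log2 difference -2.37 ± 0.21, adjusted p = 3.16e-06 by limma). Cd180, a TLR4-like receptor, fell by 0.98 and Tlr2, the receptor for bacterial lipopeptides, by 1.60. The kinase Irak2 fell by 1.28, from 33.0 and 31.4 to 12.3 and 13.1 FPKM. The MD-2 gene Ly96 was at 51.3 and 51.4 against 43.8 and 38.6 FPKM, a small fall (-0.31 ± 0.13, adjusted p = 0.0469 by limma). Among those that rose, the kinase Ikbke was at 2.24 and 2.34 against 18.7 and 20.2 FPKM (2.64 ± 0.28). Ticam2, the bridge to TRIF, rose by 1.58 and Myd88, the main adaptor, from 47.6 and 42.4 to 81.4 and 79.7 FPKM (0.83 ± 0.07). The co-receptor Cd14 did not pass the filter on low values.

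All 11 NF-kB subunits and inhibitors rose, 7 of them at least 2-fold (median 1.07; 8 rose and none fell, with a median of 0.66, under quantile normalization). Nfkbia, which encodes IkB-alpha and is on chr12:55489410-55492647, was at 219 and 222 FPKM without stimulus and 971 and 990 FPKM with LPS (2.15 ± 0.05). The inhibitor Nfkbib rose by 1.81, Nfkbid by 1.07, Nfkbie by 0.93 and Bcl3 by 0.40. Among the DNA-binding subunits Nfkb1 was at 1.25, Nfkb2 at 1.24, Rel at 1.04, Relb at 0.55 and Rela, the main transactivating subunit, at 0.37. Among 30 tested feedback inhibitors of the pathway 13 rose and 10 fell, with a median of -0.01 that turned to 0.19 under quantile normalization. Tnfaip3, the ubiquitin editor A20, was at 26.9 and 26.6 against 199 and 209 FPKM (2.89 ± 0.06), and Traf1 at 33.4 and 31.4 against 264 and 275 FPKM (3.02 ± 0.08). The ubiquitin ligase Birc3 rose by 1.57 and the mRNA-cleaving Zc3h12a by 1.61. Pdlim2, which marks Rela for degradation, fell by 2.0, the ERK phosphatase Dusp6 by 1.76, the mRNA decay factor Zfp36l2 by 1.75 and the inactive kinase Irak3 by 1.68. Their relatives Dusp4 and Zfp36l1 rose by 0.99 and 0.91, so members of a family moved in both directions.

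Of 37 cytokines and chemokines in the list 25 were tested, of which 16 rose, 14 of them at least 2-fold, and 5 fell (median 1.24). After Il6, Il1b was at 6.64 and 6.10 FPKM against 88.1 and 94.7 FPKM (3.65 ± 0.16) and Cxcl10, a chemokine for CXCR3-bearing cells, on chr5:92346638-92348889, at 5.77 and 7.45 against 99.9 and 87.8 FPKM (3.64 ± 0.39). Ccl3 and Ccl4, chemokines for macrophages and T cells, were already present without stimulus. Ccl3 went from 27.9 and 24.4 to 145 and 150 FPKM and Ccl4 from 150 and 147 to 392 and 423 FPKM. Tnf was at 1.66 and 1.19 against 13.9 and 12.9 FPKM (2.58 ± 0.19), and lymphotoxin alpha (Lta) rose by 2.18. The anti-inflammatory Il10 was at 8.11 and 7.73 against 19.7 and 16.9 FPKM (1.11 ± 0.16, adjusted p = 0.000118 by limma). The duplicates of all these genes lay apart from those of the other condition, as for 84.6% of all tested genes. Ifnb1, the type I interferon beta gene, was listed at 0 in both unstimulated libraries and at 0.859 and 0.651 FPKM with LPS, below the level at which a fold means much. Ifng went the other way, from 2.13 and 1.40 FPKM to 0 in both LPS libraries. The remaining falls were Il16 (-1.20), Csf1 (-1.18), Il12a (-0.77) and lymphotoxin beta (Ltb, -0.68).

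Interferon-stimulated genes did not move as a block: 7 of 43 tested rose and 26 fell, 14 of these at least 2-fold, with a median of -0.59 (-0.37 under quantile normalization). Oasl1, an antiviral protein that limits Irf7 translation, was at 13.9 and 14.2 against 78.2 and 75.5 FPKM (2.37 ± 0.13). Isg15, a ubiquitin-like modifier, on chr4:156199424-156200818, was at 12.4 and 17.6 against 82.0 and 70.3 FPKM (2.29 ± 0.15). The RNA-binding Ifit1 rose by 2.02, the RNA sensor Ifih1 by 1.21 and the guanylate-binding Gbp5 by 1.17. In contrast Stat2, the signal transducer of type I interferon, on chr10:128270559-128292849, was at 29.5 and 31.1 against 10.6 and 10.1 FPKM (-1.46 ± 0.10). The interferon regulatory factor Irf7 was at 38.1 and 37.9 against 15.3 and 9.82 FPKM (-1.56 ± 0.19). Cmpk2 fell by 2.44, Ifit3 by 2.21 and the RNA sensor gene Ddx58 by 1.62. Ifit3 and its near-identical copy Ifit3b may share reads. The immunoproteasome subunits Psmb9 and Psmb8 fell by 1.17 and 1.01 and the transcription factor Irf1 by 1.06.

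Among 26 immediate early factors 17 rose and 6 fell (median 0.56). Myc, the growth regulator on chr15:61985391-61990374, was at 56.4 and 58.9 FPKM without stimulus and 475 and 486 FPKM with LPS (3.04 ± 0.05, adjusted p = 1.45e-10 by limma). Batf rose by 3.53, Jun by 2.31 and the bZIP repressor Nfil3 by 2.25. Fos was not called (0.02). The zinc finger factors Klf6 and Egr2 fell by 1.48 and 1.30, while Egr1 rose by 0.46.

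Surface proteins of activated B cells rose widely. Of 26 tested 18 rose, 17 of them at least 2-fold, and 5 fell (median 1.24). Il2ra was at 5.75 and 6.96 FPKM without stimulus and 125 and 124 FPKM with LPS. Cd83, which stabilises MHC class II at the surface, went from 374 and 379 to 2103 and 2273 FPKM (2.54 ± 0.06) and the early activation antigen Cd69 from 123 and 117 to 389 and 393 FPKM (1.69 ± 0.05). The costimulator Cd86 was at 143 and 157 against 297 and 319 FPKM (1.04 ± 0.07). No library of one condition reached the other for these 4 genes, as for 84.6% of all tested genes. The adhesion molecule Icam1 rose by 2.87, Cd44 by 2.44, the death receptor Fas by 2.41, PD-L1 (Cd274) by 2.21 and Cd40 by 2.08. Cd38, an NAD-consuming ectoenzyme, fell from 75.7 and 81.1 to 8.71 and 9.32 FPKM (-2.99 ± 0.08), and the ICOS ligand Icosl fell by 1.12.

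Genes of MHC class II presentation mostly fell. Of 16 tested 11 fell, 6 of them at least 2-fold, and 1 rose (median -0.32; 12 fell with a median of -0.92 under quantile normalization). H2-DMa, which exchanges peptides on class II, was at 157 and 153 against 41.4 and 48.6 FPKM (-1.77 ± 0.09), and the H2-DM modulators H2-Oa and H2-Ob fell by 1.86 and 1.66. H2-DMb1 and H2-DMb2 are near-identical, so their falls of 1.43 and 1.73 are uncertain singly. Ciita, the master regulator of class II transcription, was at 33.2 and 35.7 against 12.9 and 11.1 FPKM (-1.45 ± 0.11). The invariant chain Cd74, the most abundant of these transcripts, was at 11293 and 11762 against 8808 and 9304 FPKM (-0.35 ± 0.07, adjusted p = 0.00145 by limma; -1.21 under quantile normalization). The class II chains H2-Aa and H2-Eb1 fell by 0.22 and 0.21, and H2-Ab1 was not called (0.08). The reductase Ifi30, the only gene of the list that rose (0.25), was lower under quantile normalization (-0.28).

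Each identity list of genes that place B cells in the spleen held members that rose and members that fell. Over all tested genes 35.0% rose and 34.4% fell, and the follicular counts and the marginal zone rises were near these shares. Of 22 marginal zone genes 8 rose and 14 fell (median -0.58), and of 13 follicular genes 5 rose and 6 fell (median -0.22; -0.11 under quantile normalization). Complement receptor 2 (Cr2), high on MZB cells, rose from 33.9 and 37.5 to 86.4 and 87.4 FPKM (1.26 ± 0.07), whereas Cd1d1, which presents lipids, fell from 14.3 and 15.2 to 2.58 and 2.31 FPKM (-2.19 ± 0.20). Notch2, the receptor that MZB fate depends on, fell by 0.71 and its target Dtx1 by 0.70. Fcer2a (CD23), the usual marker of follicular B cells, was at 126 and 139 against 937 and 923 FPKM (2.80 ± 0.08), while the integrin chain Itgb7 of the same list fell by 3.94.

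Of 26 migration receptors, integrins and RGS proteins, some of which are in the identity lists too, 6 rose and 17 fell, 12 of these at least 2-fold (median -0.88). Besides S1pr1, the receptor S1pr4 fell by 3.60, the chemokine receptor Cxcr4 by 2.17, and Rgs14 and Rgs2, which switch off G proteins, by 3.56 and 3.16. Klf2, the factor that drives S1pr1 transcription, fell from 137 and 129 to 14 and 18 FPKM (-2.98 ± 0.12). Ccr7, which leads cells to T cell zones, rose from 473 and 508 to 1697 and 1827 FPKM (1.84 ± 0.06), Cxcr5, which leads to follicles, by 1.42, and the oxysterol receptor Gpr183 by 1.16.

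The machinery of the B cell receptor was lower after LPS. Of 26 signalling genes 19 fell, 12 at least 2-fold, and 3 rose (median -0.76). The inhibitory adaptor Dok3 was at 96.4 and 101 against 5.86 and 6.65 FPKM (-3.78 ± 0.07) and the inhibitory receptor Cd22 at 92.3 and 94.8 against 12.7 and 15.7 FPKM (-2.64 ± 0.10). The signalling chain Cd79a was at 2121 and 1965 against 653 and 673 FPKM (-1.62 ± 0.06). The kinases Btk and Lyn fell by 1.89 and 1.72 and the phosphatase Inpp5d by 2.04, so genes that promote and genes that restrain the signal fell alike. The tetraspanin Cd81 was higher by 0.50 but at -0.07 under quantile normalization. The lectin Cd72 rose by 0.93.

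Genes of antibody-secreting cells had not risen at 4 h, apart from Irf4, Slamf7 and Creld2, the last of which lost its call under quantile normalization. In the list 3 of 14 tested rose and 8 fell (median -0.34). Irf4, which acts early in that path, was at 35.9 and 37.1 against 206 and 224 FPKM (2.52 ± 0.06). Prdm1, which encodes the later regulator Blimp-1, was at 7.16 and 8.10 against 3.74 and 5.29 FPKM (-0.66 ± 0.15), and the surface marker Sdc1 at 17.0 and 19.7 against 1.27 and 2.01 FPKM (-2.88 ± 0.19). The B cell identity factors fell in 11 of 18 cases and rose in 4 (median -0.58). Id3 was at 335 and 291 against 35.3 and 34.7 FPKM (-3.12 ± 0.07) and Ets1, which restrains plasma cell formation, at 257 and 297 against 31.5 and 32.8 FPKM (-3.06 ± 0.07). Id2, a relative of Id3, rose from 27.2 and 26.1 to 137 and 144 FPKM (2.35 ± 0.07). Bach2, a repressor of Prdm1, fell by 1.74, whereas Pax5 and Ebf1, which hold B cell identity, were not called (0.02 and -0.02).

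**Figure D2:**
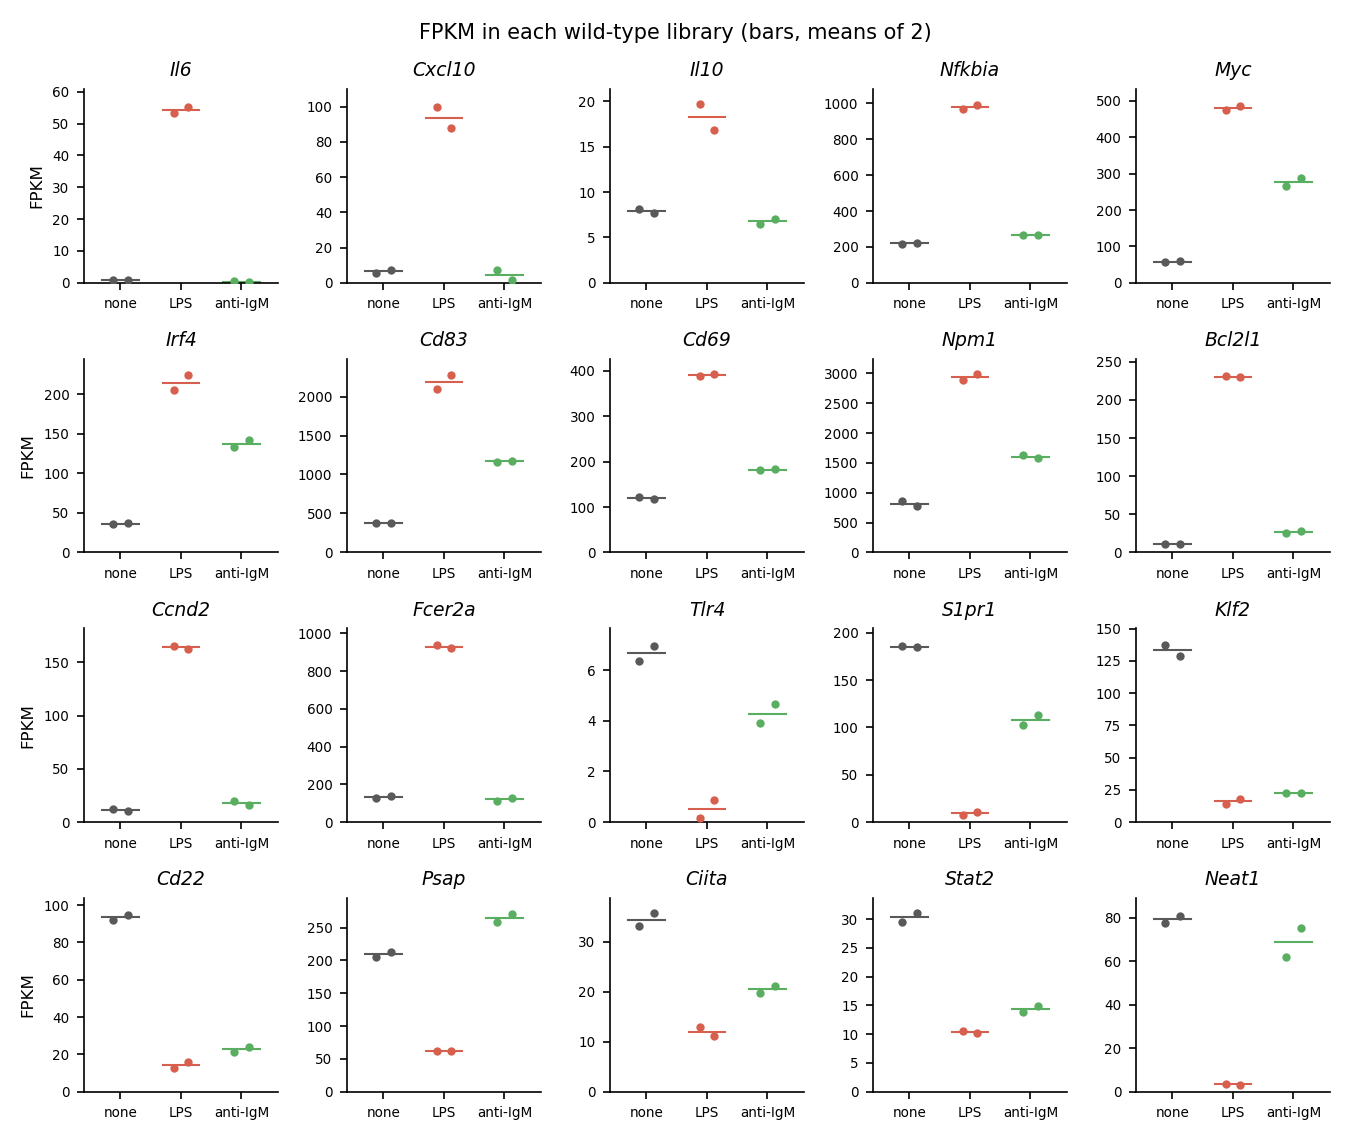
FPKM (linear axes from 0) of 20 genes in each wild-type library without stimulus, with LPS and with anti-IgM, points standing for libraries and lines for the means of 2. With LPS the first 12 genes, from Il6 to Fcer2a, are highest and the last 8, from Tlr4 to Neat1, lowest, as for Il6 (53.3 and 55.2 against 0.837 and 0.995 FPKM) and S1pr1 (7.49 and 11.0 against 186 and 185 FPKM).

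Genes that hold resting cells back from growth fell. None of 24 tested quiescence and growth-restraint genes rose and 20 fell, 15 at least 2-fold (median -1.53; 1 rose and 19 fell under quantile normalization). Cyclin G2 (Ccng2) was at 101 and 97.1 FPKM against 7.66 and 8.0 FPKM (-3.50 ± 0.08) and the cyclin-dependent kinase inhibitor p27 (Cdkn1b) at 9.07 and 7.45 against 0.879 and 0.999 FPKM (-2.25 ± 0.14). Pik3ip1, a brake on PI3 kinase, fell by 3.25, the Myc antagonist Mxd4 fell by 3.20 and Txnip, which limits glucose uptake, by 2.17.

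Ribosome biogenesis was, apart from marker lists, the only list in which every tested gene rose at least 2-fold. All 38 tested genes did so (median 2.01, range 1.23 to 2.69), against 13.1% of all genes, and all 38 were also called higher under quantile normalization (median 1.63). Nucleolin (Ncl) was at 141 and 134 against 601 and 615 FPKM (2.13 ± 0.05) and nucleophosmin (Npm1) at 860 and 770 against 2895 and 2981 FPKM (1.85 ± 0.07). Polr1b, the second largest subunit of RNA polymerase I, was at 16.3 and 20.3 against 116 and 118 FPKM (2.62 ± 0.11), and Rrp9, a processing factor of the small subunit, rose by 2.69. Each LPS library exceeded each unstimulated library by a wide margin for these genes. In either direction the libraries did not overlap for 84.6% of all tested genes.

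Genes that supply growth rose as well. Of 28 genes of nucleotide, one-carbon and polyamine synthesis 25 rose, 23 at least 2-fold (median 1.60), led by spermidine synthase (Srm) at 90.1 and 84.9 against 612 and 653 FPKM (2.84 ± 0.06), and the serine pathway gene Psph was the only one that fell (-0.32). Of 30 amino acid transporters and tRNA synthetases 26 rose and none fell (median 1.10; 3 fell under quantile normalization), with the leucine transporter Slc7a5 at 2.2. Of 25 translation factors 23 rose and none fell (median 1.35; 1 fell and the median was 0.87 under quantile normalization). The cap-binding Eif4e was at 85.6 and 86.5 against 336 and 370 FPKM (2.02 ± 0.07) and Eif5a at 722 and 689 against 2344 and 2415 FPKM. The cytosolic ribosomal proteins moved little: 22 of 26 rose, none of them 2-fold (median 0.49), but under quantile normalization 11 rose and 8 fell with a median of -0.01, so their direction depended on the scaling. Of 28 proteasome genes 27 rose, 14 at least 2-fold (median 0.97; 21 rose and 3 fell, median 0.37, under quantile normalization), and the immunoproteasome subunit Psmb10 fell by 0.81.

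**Figure D3:**
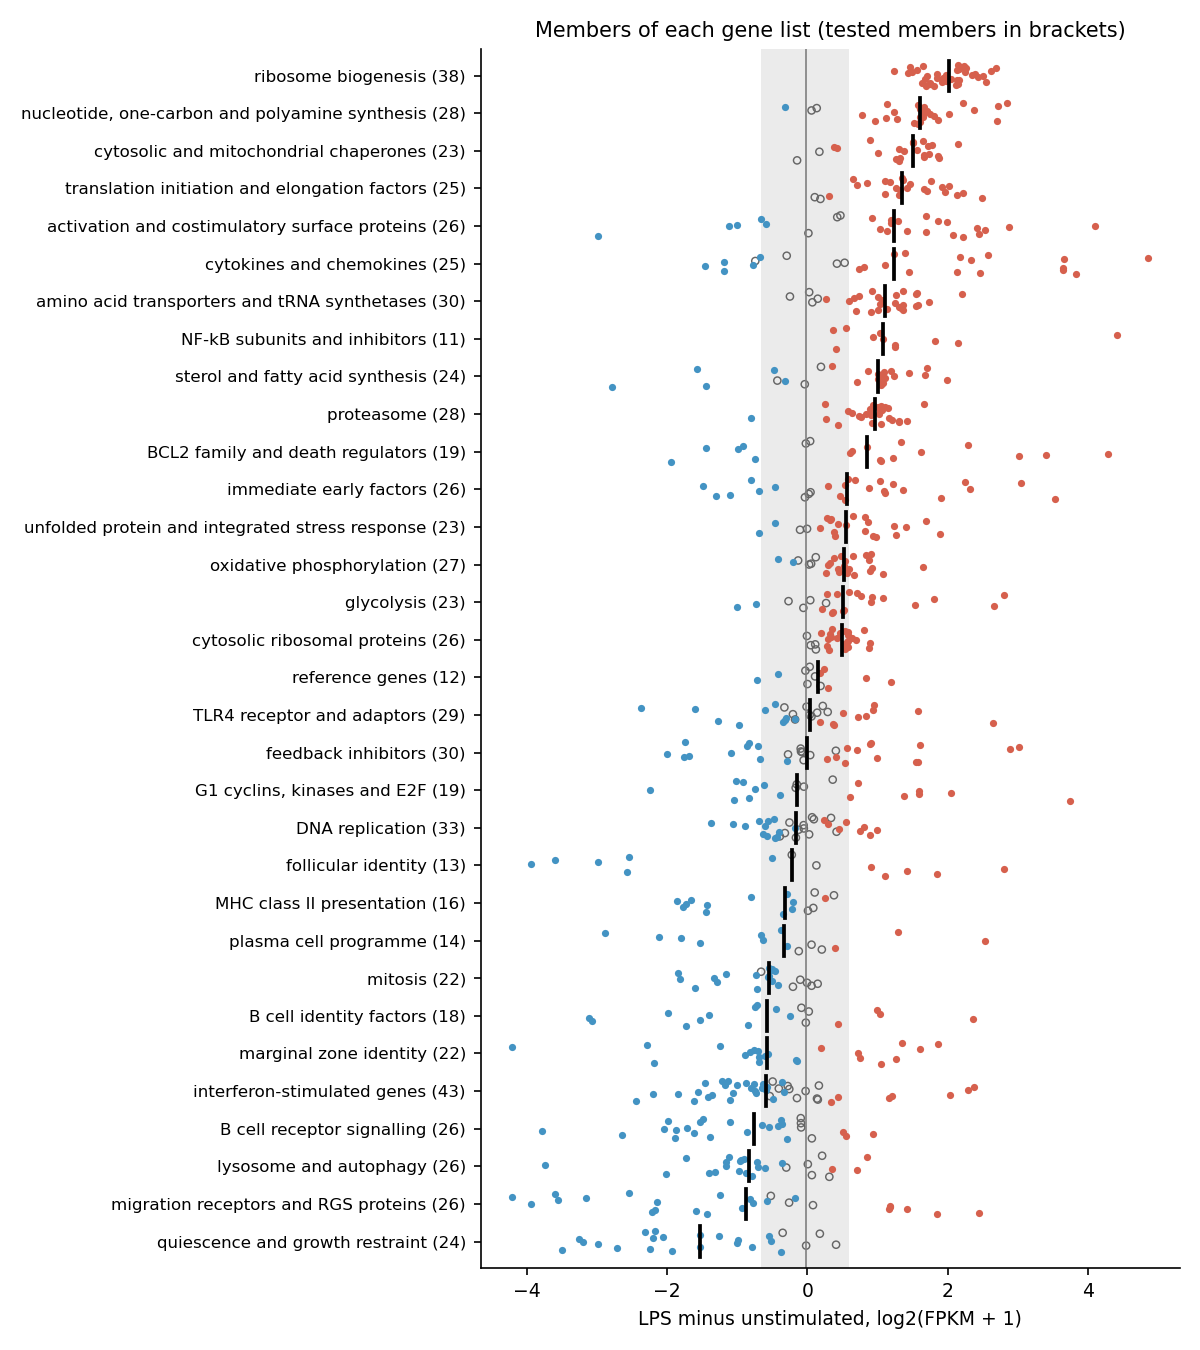
Log2 differences (LPS minus unstimulated, wild-type cells) of the tested members of each gene list, red for called higher, blue for called lower and open for not called, with black bars at the list medians and a grey band over the quartiles of all tested genes (-0.66 to 0.59). Ribosome biogenesis lies wholly above 1 (median 2.01), quiescence genes lie mostly below 0 (median -1.53), and the interferon-stimulated, identity and migration lists spread to both sides.

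Among cell cycle lists, G1 and DNA replication genes moved in both directions at 4 h, while no mitosis gene was called higher. Over all tested genes 35.0% rose and 34.4% fell, and the G1 counts were near these shares. Of 19 tested G1 cyclins, kinases and E2F genes 7 rose and 8 fell, with a median of -0.15 that was 0.31 under quantile normalization. Ccnd2 was at 12 and 10.8 against 166 and 163 FPKM (3.74 ± 0.11), its partner kinases Cdk6 and Cdk4 rose by 2.04 and 1.58, and Ccnd3 fell by 1.04. Of 33 DNA replication genes 8 rose, none of them 2-fold, and 13 fell (median -0.17; 9 rose and 10 fell, median -0.08, under quantile normalization), with the helicase subunit Mcm3 at 0.99, the sliding clamp Pcna at 0.81 and the clamp loader subunit Rfc2 at -1.38. None of 22 mitosis genes rose and 16 fell (median -0.55; 10 fell with a median of -0.32 under quantile normalization). The centromeric histone Cenpa was at 34.4 and 30.2 against 7.37 and 9.58 FPKM (-1.82 ± 0.13), and the mitotic kinase Aurkb fell by 1.60.

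Of 23 tested glycolysis genes 17 rose and 2 fell (median 0.50; 11 rose and 6 fell, median 0.19, under quantile normalization). The lactate transporter Slc16a1 was at 8.46 and 10.1 against 68.0 and 72.5 FPKM (2.80 ± 0.08) and hexokinase 2 (Hk2) at 1.74 and 2.06 against 18.5 and 16.3 FPKM (2.66 ± 0.14), while its relative Hk1 fell by 1.01. Of 27 oxidative phosphorylation genes 21 rose and 2 fell (median 0.52), but under quantile normalization 7 rose and 9 fell with a median of -0.02, so no direction is given for the list. Cytochrome c (Cycs), at 1.65, stood highest in it. Of 24 sterol and fatty acid genes 16 rose, 12 at least 2-fold, and 5 fell (median 1.0). Fatty acid synthase (Fasn) rose by 1.99 and the isoprenoid enzyme Idi1 by 1.67, while the cholesterol exporters Abca1 and Abcg1 fell by 2.79 and 1.45. Abca1 was at 16.2 and 16.4 against 1.39 and 1.61 FPKM.

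Of 23 chaperones 21 rose, 18 at least 2-fold, and none fell (median 1.5; 0.95 under quantile normalization). The mitochondrial chaperonin Hspd1 was at 164 and 159 against 702 and 731 FPKM (2.14 ± 0.06), and Cct3 of the cytosolic chaperonin rose by 1.87. The stress-inducible Hspa1a and Hspa1b, near-identical copies, were higher by only 0.43 and 0.37. Of 23 genes of the unfolded protein and integrated stress responses 19 rose and 2 fell (median 0.55; 12 rose and 6 fell, median 0.30, under quantile normalization), with the endoplasmic reticulum chaperone Hspa5 at 1.40 and the stress factor Ddit3 at -0.70.

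In the BCL2 family and death regulators 12 of 19 tested rose, 9 at least 2-fold, and 5 fell (median 0.85; 0.50 under quantile normalization). Both survival and death genes were among them. Cflar, which blocks caspase 8, rose by 2.29 and the BH3-only gene Bid by 1.61, Bcl2 fell from 20 and 18.2 to 12.2 and 9.79 FPKM (-0.75 ± 0.12), and the death promoter Bad fell by 1.95. Mcl1 was not called (-0.02). Lysosome and autophagy genes fell in 18 of 26 cases, 8 at least 2-fold, and rose in 3 (median -0.84). Psap, the precursor of the saposins, was at 205 and 214 against 62.2 and 62.5 FPKM (-1.73 ± 0.05). The autophagy receptor Sqstm1 rose by 0.85. Common reference genes were not flat. Hprt rose by 1.19, Ppia by 0.84 and Polr2a fell by 0.73, while the list as a whole, with 5 of 12 higher and 2 lower (median 0.14), turned to 2 higher and 6 lower (median -0.22) under quantile normalization.

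In absolute level, with small RNA, predicted and receptor segment genes left out, the largest gain was in Ppia, a cyclophilin. Ppia went from 3156 and 2906 to 5440 and 5401 FPKM. Npm1, the chaperone Hspa8 (878 and 847 against 2790 and 2856 FPKM) and Cd83 followed. Tmem123, a membrane mucin, went from 287 and 285 to 1853 and 1972 FPKM (2.74 ± 0.05). The largest losses after Cd74 and Cd79a included Plac8, from 1033 and 952 to 153 and 161 FPKM (-2.65 ± 0.09), the lipoprotein Apoe, from 800 and 759 to 83.1 and 85.7 FPKM (-3.19 ± 0.07), and Fcmr, the IgM Fc receptor, from 817 and 778 to 153 and 160 FPKM (-2.34 ± 0.06). Genes that rose at least 2-fold had a median level of 24.1 FPKM without stimulus, genes that fell at least 2-fold 14.1 FPKM and genes not called 7.80 FPKM. The annotated mRNAs of genes that rose or fell at least 2-fold had median lengths of 2728 and 2808 nt, and those of genes not called 3171 nt.

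The LPS response was set beside that of Trpm5-/- cells, whose 4 libraries are separate from those above. In the knockout 68.7% of tested genes (7413) were called, 34.8% higher and 33.8% lower with LPS. Of the wild-type calls 6634 were called in the same direction in the knockout, which is 88.6% of the wild-type and 89.5% of the knockout calls, and 6 were called in the opposite direction. Of the 3083 wild-type genes called at least 2-fold 3002 were called the same way in the knockout. Across the 10797 genes, which are not independent, the 2 sets of differences had a Pearson correlation of 0.868. Il6 rose by 4.83 in the knockout against 4.85 in the wild type, Nfkbiz by 4.27 against 4.40, Myc by 2.87 against 3.04 and Bcl2l1 by 4.47 against 4.28. S1pr1 fell by 3.72 against 4.21 and Tlr4 by 2.87 against 2.37. All 38 ribosome biogenesis genes rose in both genotypes, with medians of 1.91 in the knockout and 2.01 in the wild type.

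Tested directly, the difference between the 2 responses passed the threshold for 11 genes (0.102%), 4 with a higher (0.0370%) and 7 with a lower response in wild type (0.0648%), while 1113 genes had an unadjusted p under 0.05. Lrmp (also called Jaw1), a protein of the endoplasmic reticulum membrane, was at 53.2 and 51.0 against 8.88 and 12.3 FPKM in wild type and at 63.3 and 66.2 against 42.9 and 44.2 FPKM in the knockout, so it fell in both genotypes and further in wild type, by 1.65 ± 0.16 (adjusted p = 0.00305 by limma). The wild-type LPS libraries lay far below the knockout ones, and the call held under all 16 alternatives. Vps37b, of the ESCRT-I sorting complex, also fell further in wild type, by 0.81. Bid and Gpr183 rose in both genotypes and by 0.46 and 0.58 more in wild type, and the peptidase Pepd was not called in wild type (0.03) but rose by 0.77 in the knockout. Those 4 calls held under 3 to 6 of the 16 alternatives. The count of 11 fell to 6 with the replicate number as a block and was 3 without the second unstimulated wild-type library and 23 without the first LPS-treated knockout library. The other 6 genes were small RNA genes or members of families with near-identical copies. An absent call does not show that a gene responded alike.

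**Figure D4:**
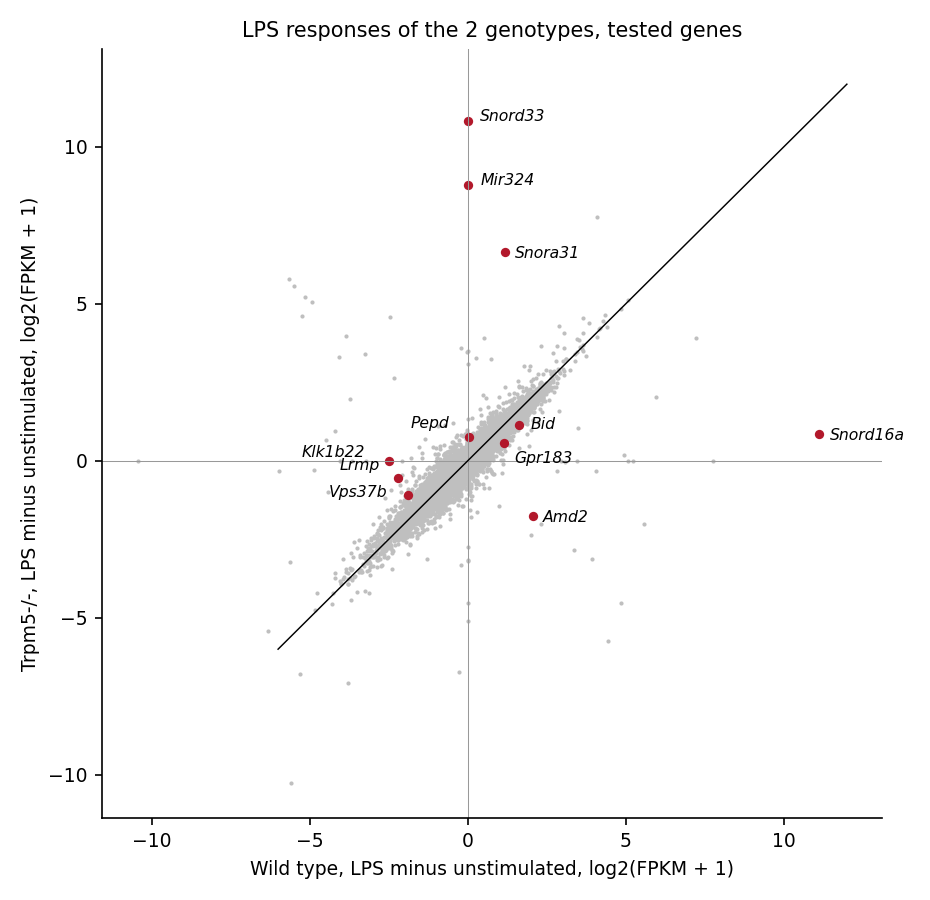
Log2 difference between LPS-treated and unstimulated cells of each tested gene in wild type (x axis) and in Trpm5-/- cells (y axis), with the line of equal response and, in dark red, the 11 genes whose responses differed by the direct test. Most genes lie along the diagonal (Pearson correlation 0.868 across 10797 genes), and Lrmp lies off it, at -2.21 in wild type and -0.56 in the knockout.

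Anti-IgM, which ligates the B cell receptor, gave the second reference, in libraries of the same genotype and time. Both stimuli share the unstimulated libraries, so their own differences are given side by side and the direct contrast of LPS with anti-IgM libraries carries the test. The 2 stimuli differed in 52.7% of tested genes (5695), 2994 higher with LPS (27.7%) and 2701 lower (25.0%), of which 393 (3.64%) and 838 (7.76%) differed at least 2-fold. Anti-IgM against unstimulated cells gave 5246 calls (48.6%), 27.7% higher and 20.9% lower.

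Cytokines and NF-kB regulators differed between the stimuli. Of 25 tested cytokines 18 were higher with LPS than with anti-IgM and 2 lower (median difference 1.18), and anti-IgM alone raised 4 and lowered 5. Il6 was at 0.420 and 0.343 FPKM with anti-IgM (LPS minus anti-IgM 5.32 ± 0.19, adjusted p = 1.38e-08 by limma) and Il1b at 1.21 and 0.719 FPKM (5.57 ± 0.16), both below their unstimulated levels. Nfkbiz was at 30.1 and 29.5 FPKM with anti-IgM (3.41 ± 0.08), and 9 of the 11 NF-kB subunits and inhibitors were higher with LPS. Rel was lower with LPS, at 103 and 99.0 against 117 and 124 FPKM (-0.26 ± 0.06). Of 26 activation surface proteins 21 were higher with LPS (median 1.0). Tmem123 was at 223 and 213 FPKM with anti-IgM (3.12 ± 0.05).

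Ribosome biogenesis genes rose with both stimuli and further with LPS. All 38 rose with anti-IgM (median 1.14), and all 38 were higher with LPS than with anti-IgM (median 0.83; 37 under quantile normalization). Myc reached 266 and 287 FPKM with anti-IgM (LPS minus anti-IgM 0.80 ± 0.05). The lysosome and autophagy list parted: 17 of 26 rose with anti-IgM (median 0.37) where 18 fell with LPS (median -0.84), and 20 were lower with LPS than with anti-IgM (median -1.07; 21 under quantile normalization). Psap was at 258 and 271 FPKM with anti-IgM, above both its unstimulated and its LPS values. Interferon-stimulated genes fell in 31 of 43 cases with anti-IgM (median -0.69) and 26 with LPS (median -0.59), and 14 were higher and 4 lower with LPS in the direct contrast. With anti-IgM Isg15 was at 12.1 FPKM in both libraries and Oasl1 at 15.4 and 12.1 FPKM, within or near the values of unstimulated cells.

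Several genes lay far lower with LPS than with anti-IgM. The zinc finger factor Egr2 was at 156 and 170 FPKM with anti-IgM against 10.3 and 8.14 FPKM with LPS (-4.01 ± 0.11). The small GTPase Rab30 was at 56.3 and 55.6 FPKM with anti-IgM (-4.13 ± 0.16) and S1pr3, which guides MZB cells, at 54.7 and 58.7 against 3.50 and 4.05 FPKM (-3.60 ± 0.14). For these 3 genes the unstimulated libraries lay between the stimuli. Neat1, at 62.2 and 75.3 FPKM with anti-IgM (-3.99 ± 0.10), Apoe, at 710 and 813 FPKM (-3.15 ± 0.07), and Plac8, at 1186 and 1188 FPKM (-2.91 ± 0.09), fell with LPS and stayed near or above their unstimulated level with anti-IgM. Lrmp, at 122 and 127 FPKM, rose with anti-IgM by 1.24.

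**Figure D5:**
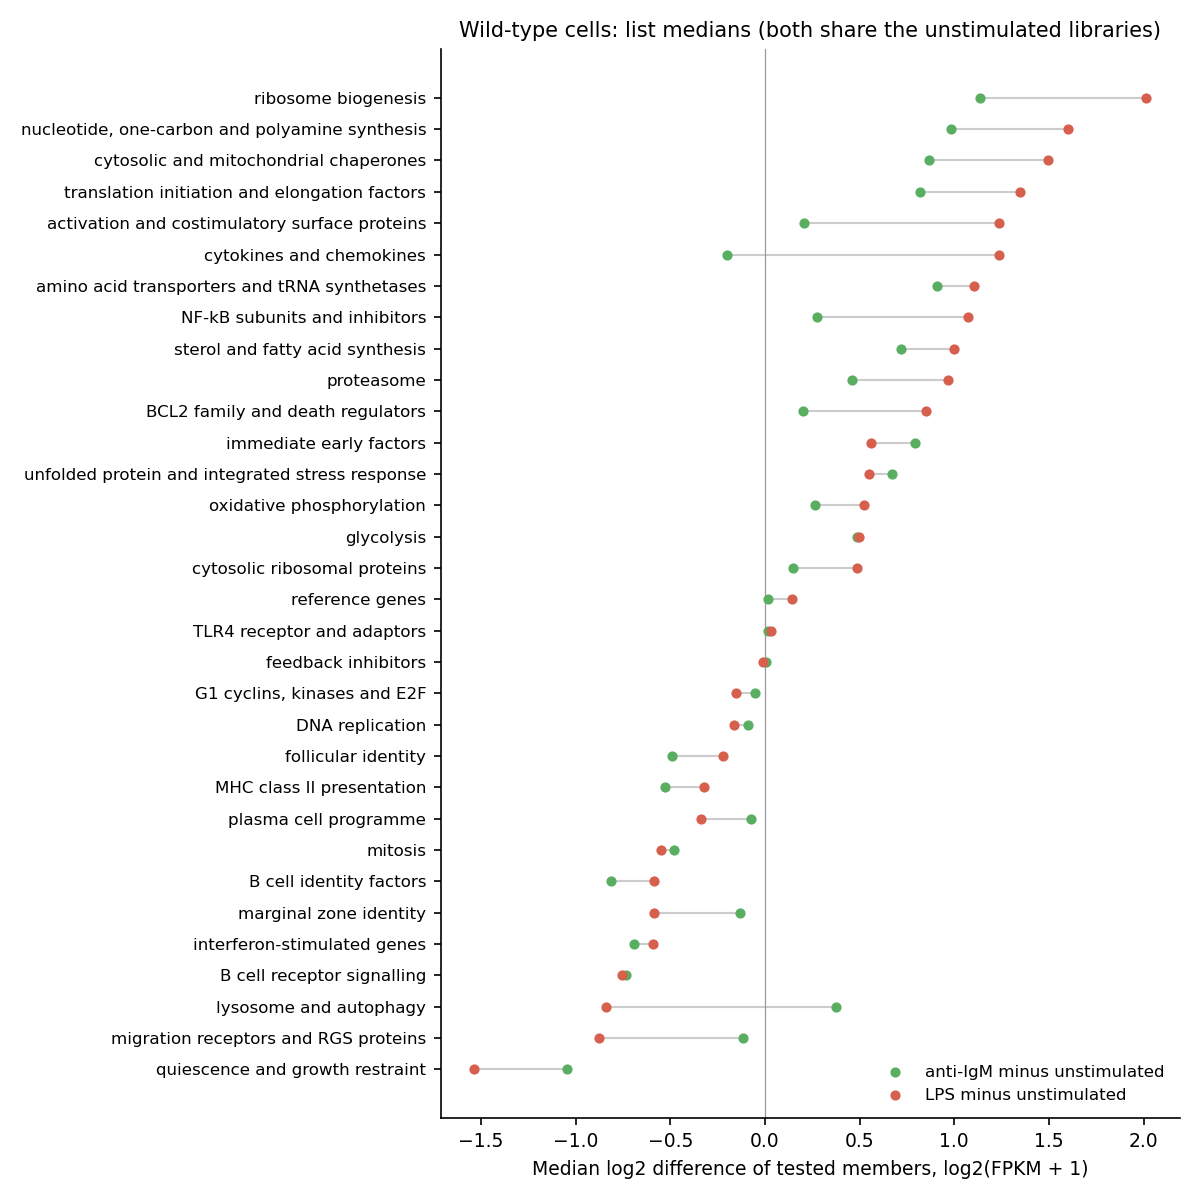
Median log2 difference from unstimulated wild-type cells of the tested members of each gene list, with LPS (red) and with anti-IgM (green), both over the same 2 unstimulated libraries. Ribosome biogenesis stands at 2.01 with LPS and 1.14 with anti-IgM, cytokines at 1.24 and -0.20, and lysosome genes at -0.84 and 0.37.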

How the data were processed

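RNA was sequenced from 12 MZB libraries in 6 groups of 2. Per the labels' protocols, total RNA was taken with a miRNeasy kit, full-length cDNA made with SMART-Seq HT and libraries with a Nextera kit. The build is mm10 and the tools are Cufflinks 2.2.1, Bowtie2 2.2.3, TopHat2 2.0.13 and SAMtools 0.1.19, listed without roles in the submitters' processing notes. The authors deposited 1 FPKM value per gene symbol and library. The unit is inferred from the tools and the values. For the gene models and any scaling between libraries, nothing is stated in these sources. FPKM of genes shorter than a library fragment, such as small RNA genes, is unreliable.

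Genes reaching 1 FPKM in 2 or more libraries were fitted with limma 3.58.1 in R 4.3.3 on log2(FPKM + 1), with the 6 group means over 12 libraries, a mean-variance trend and 6 residual degrees of freedom. Tests were 2-sided with Benjamini-Hochberg adjustment over all tested genes and a threshold of 0.05. The fit was tested on simulated data, which held far fewer changed genes than the real response. For the LPS response it recovered 59.1% of 1.5-fold and 95.4% of 2-fold changes, and 18 of 187 calls were false. For the difference from the knockout it recovered 30.6% and 73.9%, and 13 of 144 calls were false. For LPS against anti-IgM it recovered 63.4% and 88.4%, and 7 of 173 calls were false. Named genes were the 15 largest rises and falls and the 10 largest gains and losses in FPKM (called, at least 5 FPKM in the higher group, no overlap, small RNA, predicted and receptor segment genes left out), genes that switched off or on, list members of smallest p or opposite direction, the genes that differed most from the knockout or from anti-IgM, and a few chosen genes. Further list members were named to describe the makeup of a list. Members and lists were chosen with earlier results of these data known. Alternatives were other pseudocounts, filters, scalings and fits, the replicate block, and each library left out. Positions come from GENCODE M21 (10699 tested symbols matched, 340 through a synonym) and promoters from RefSeq GRCm38.p6 (8231 tested symbols matched).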

Additional observations from a re-analysis of the deposited data

Results flagged for a closer look

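The LPS response differed between wild-type and Trpm5-/- cells, by a direct test of that difference in limma with Benjamini-Hochberg adjustment, for 11 genes, given here as wild-type minus knockout response on the log2(FPKM + 1) scale. For Lrmp the difference was -1.65 (adjusted p = 0.00305), for the sorting gene Vps37b -0.81 (adjusted p = 0.0332) and for the peptidase Pepd -0.74 (adjusted p = 0.0336). The death regulator Bid was at 0.46 (adjusted p = 0.0336), the receptor Gpr183 at 0.58 (adjusted p = 0.04) and the polyamine gene Amd2, which has a near-identical copy, at 3.80 (adjusted p = 0.0332). Amd2 was at 21.8 and 12.5 against 75.9 and 68.2 FPKM in wild type and at 14.4 and 16.3 against 5.93 and 2.44 FPKM in the knockout.

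The kallikrein Klk1b22, whose gene family includes near-identical copies, was at -2.48 (adjusted p = 0.045) and was listed at 0 in all 4 knockout libraries, without and with LPS. The small RNA gene Snord33 was at -10.82 and Mir324 at -8.78, both listed at 0 in all 4 wild-type and both unstimulated knockout libraries. Snora31 was at -5.48 and listed at 0 in both unstimulated knockout libraries, and Snord16a was at 10.27 and listed at 0 in both unstimulated wild-type libraries. Lrmp, Snord33 and Mir324 were called under all 16 alternatives, Snord16a under 11, Snora31 under 9 and the others under 2 to 6.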

How the results depend on the processing

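With no library left out and no stricter filter, the wild-type response gave 7127 calls (quantile normalization) to 7659 (no filter on low values) against 7489, and 6683 to 6829 with 1 wild-type library left out (3414 to 3506 higher, 3269 to 3323 lower). A mean of at least 5 FPKM, which tests fewer genes (7915), gave 5929 calls, 2461 falls instead of 3715 and 1055 falls of at least 2-fold instead of 1669. Quantile normalization kept 79.4% of calls and turned Ifi30 to -0.28 and Cd81 to -0.074; the cause was not tested. Of the 243 genes picked by the naming rules for the wild-type response, 223 kept their direction and side of the threshold. They did so under all 12 alternatives, or 11 where the stricter filter left the gene out. The 20 that did not had differences of at most 0.805. Further genes named in the text, such as Klf2, Stat2 and Ly96, are not in this count. LPS against anti-IgM gave 4643 to 5732 calls against 5695.

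The difference from the knockout response was less stable, and the cause was not tested. Its 11 calls (4 higher, 7 lower, 2 and 5 of them at least 2-fold) became 4 (0 higher, 4 lower, 0 at least 2-fold higher) with no mean-variance trend and 5 (1 higher, 4 lower, 1 at least 2-fold higher) with only the groups compared. At least 2-fold, 0 higher and 3 lower remained called with no filter on low values, and 1 higher under quantile normalization. With 1 library left out there were 3 to 23 calls, 0 to 15 higher (0 to 7 at least 2-fold) and 3 to 8 lower (3 to 6 at least 2-fold). The 23 came without the first LPS-treated knockout library and the 3 without the second unstimulated wild-type library; leaving out either LPS-treated wild-type library gave 6 and either unstimulated knockout library 5, and without the second LPS-treated knockout library there were 7.

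Deviations of same-numbered LPS and unstimulated wild-type libraries were nearly uncorrelated (r = -0.027). Over all pairs of groups r ran from -0.172 (wild-type LPS with unstimulated knockout) to 0.199 (knockout LPS with knockout anti-IgM). These values cannot show whether libraries of the same number shared animals or batches. With the number as a replicate block the response gave 7471 calls (98.7% of calls kept), LPS against anti-IgM 5732, and the difference from the knockout 6 (1 higher, 1 at least 2-fold higher).

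With 2 libraries a group and no read totals, small differences in genes of few FPKM were not detectable, and an absent call does not show that a gene did not move.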
